A study of Mus musculus with 4 samples.

Results

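The regions described here are 826 stretches of autosomal chromatin pulled down with Hopx whose nearest neighbour in the same list lay more than 10 kb and at most 100 kb away. They made up 22.7% of the 3636 regions on the autosomes (exact 95% interval 21.4 to 24.1%, counting error only) and 21.9% of all 3775 regions in the list. For every region the gap to the left and to the right neighbour was taken from edge to edge, and the smaller gap decided membership. The regions were thus chosen by measured spacing, and every statement on their gaps below is a description without a test. Of the other autosomal regions, 279 had a neighbour within 10 kb and 2531 had none within 100 kb. The latter are called isolated regions here.

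The material was hearts of mouse embryos at embryonic day 9.5. The embryos were heterozygous for a Hopx allele carrying a triple Flag tag, so each pull-down saw the product of the tagged allele only. Chromatin from pooled hearts of several litters was fixed with formaldehyde alone or with formaldehyde plus EGS, a protein-to-protein crosslinker, and each preparation gave 1 anti-Flag (Sigma M2) library and 1 input library. The 4 libraries thus formed 4 groups of 1, there was no embryo without the tag among them, and the tissue was whole heart, in which muscle, endocardial and other cells are mixed. The deposited list is a single merged one for the series, and which libraries gave peaks to it is not stated. No region in it could be traced to a crosslinking condition, so the conditions were not compared.

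Hopx is a small protein with a homeodomain that has lost the ability to contact DNA. It reaches chromatin through partners. In heart development it is known to restrain serum response factor, with histone deacetylases among its partners, and to work with Smad proteins where BMP signalling limits Wnt signalling in cells committed to heart muscle. Regulatory elements of one gene can stand many kilobases apart. The regions described here were chosen for spacing on that scale, which does not show that neighbours among them belong to one gene. Which genes lie beside them was not examined, because the gene and promoter tables used here belong to another genome build than the list (mm9). Regions are therefore named by position in mm9, with no gene and no sequence.

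Most of these regions came in pairs with no further region within 100 kb. A chain is used here for a run of regions in which each gap to the next is at most 100 kb. The 826 regions fell into 384 chains spread over all 19 autosomes, and 303 of the chains were pairs, which held 606 of the regions. Chains of 3 or more held 220 of them, or 26.6% (exact 95% interval 23.6 to 29.8%). All regions of a chain count together here, so this interval is too narrow. There were 56 chains of 3 regions, 15 of 4, 8 of 5, 1 of 7 and 1 of 8. Few regions thus sat in long runs, and the chain with most of them held 0.847% of the total.

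Within the pairs the gap ranged from 10.1 to 99.0 kb with a median of 54.4 kb. The gaps from a pair out to the next region on either side had a median of 499 kb over the 604 flanks that could be measured. Only 18 pairs were more than 1 Mb away from other regions on both sides. Flanks of a pair exceed 100 kb by the definition of a chain. Taken over single regions, 743 had a neighbour within 100 kb on one side only, and 83, or 10.0%, had one on both sides. In 49 of those 83 the larger gap was less than 2 times the smaller.

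The relation between neighbours was mostly mutual. For 738 of the 826 regions, forming 369 pairs, each was the nearest neighbour of the other. In a chain of 2 this holds by definition, which accounts for 606 of the 738. The share over all autosomal regions was not examined. For the remaining 88 the nearest neighbour had a closer neighbour of its own. That neighbour belonged to a tight group, with a region within 10 kb, in 27 cases. Tight groups played a small part: 27 chains contained both kinds of region, with 35 regions spaced 10 to 100 kb and 63 regions within 10 kb of another, while 357 chains consisted of regions spaced 10 to 100 kb alone.

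The smaller gap was spread almost evenly over the range that the rule admits, apart from its lower end. Its median was 51.9 kb with quartiles of 26.4 and 74.0 kb. The bin from 10 to 20 kb held 142 regions, 17.2% of the total. Each of the 8 bins of 10 kb between 20 and 100 kb held 74 to 99 regions, with a mean of 85.5. In chains free of tight groups the count from 10 to 20 kb was 127, against a mean of 83.0 in the later bins, so the raised first bin was present there too.

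Seen as gaps between neighbouring regions, the range from 10 to 100 kb held 474 of the 3617 autosomal gaps. There were 174 gaps of up to 10 kb, 80 from 10 to 20 kb, and between 41 and 57 in each later bin up to 100 kb, with a mean of 49.2. Past the upper limit the bins from 100 to 200 kb held 29 to 54 gaps, with a mean of 41.1. The counts therefore passed the 100 kb limit without a step, with 52 gaps in the bin below it and 54 in the bin above it. The lower limit at 10 kb lay on a slope.

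**Figure D1:**
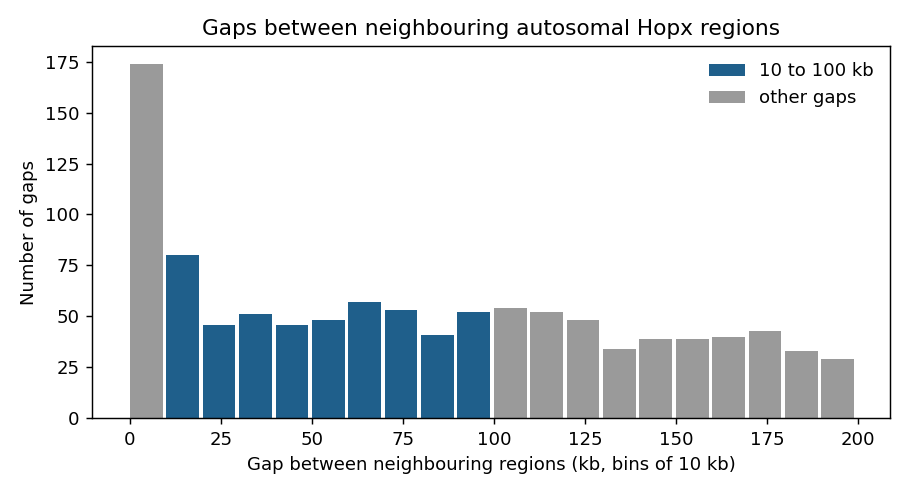
Number of gaps between neighbouring autosomal regions (vertical axis) by gap length in kb (horizontal axis, bins of 10 kb, up to 200 kb); blue bars are the gaps from 10 to 100 kb. The first bar reaches 174 and the bar from 10 to 20 kb reaches 80, while those from 20 to 100 kb stay between 41 and 57.

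The regions nearest to the limits show how narrow the choice is. Just inside the lower limit lay 2 regions on chromosome 16, from 16461995 to 16462195 and from 16472322 to 16472522, which are 10.1 kb apart. Just outside it lay 2 on chromosome 19, from 22168205 to 22168405 and from 22178320 to 22178520, which are 9.91 kb apart. At the upper limit, a region on chromosome 10 from 79172599 to 79172799 had its nearest neighbour at 99.7 kb, and one on chromosome 8 from 129621234 to 129621434 at 99.5 kb. A pair on chromosome 11, from 103907528 to 103907728 and from 104008045 to 104008245, was left out at 100.3 kb. All of these regions came from 1 peak.

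The longest chains differed in build. The one with most regions lay on chromosome 5 from 14907553 to 15052457, with 8 regions over 144.9 kb. Of these, 5 were spaced 10 to 100 kb and 3 formed a tight group inside the chain, in which the gaps were 0.892 and 1.24 kb. The first 4 regions were separated by 15.3, 28.7 and 19.2 kb, the tight group followed after 33.0 kb, and the last region stood 44.8 kb beyond it. Single regions were thus strung out on both sides of the tight group.

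The chain on chromosome 10 had no tight group. It ran from 93007973 to 93433203, over 425 kb, with 7 regions, all spaced 10 to 100 kb. Its successive gaps were 77.8, 93.6, 98.0, 51.1, 70.6 and 32.9 kb. The next regions outside the chain lay 228 kb before and 662 kb after it. It was the only chain of more than 5 regions without a tight group.

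The remaining 3 of the 5 chains with most regions were carried by tight groups, which the choice among ties favours. There were 8 chains of 5 regions, 4 of them without a tight group, and ties went to the shorter span. On chromosome 1, from 85241471 to 85269009, a single region stood 10.1 kb before a group of 4. On chromosome 14, from 58264034 to 58378288, a group of 3 had a single region 30.8 kb before it and another 71.5 kb after it. On chromosome 9, from 7934517 to 8004369, a single region stood 18.2 kb before 4 regions that formed 2 close pairs. In these chains 1 or 2 of the 5 regions belong to the set described here.

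Chains of 5 regions without a tight group occurred 4 times, and these were picked out after their values had been seen. The chain on chromosome 19, from 56187198 to 56444068, was the most regular, with gaps of 71.4, 63.4, 69.9 and 51.3 kb. On chromosome 2, from 114973365 to 115156991, the gaps were 98.9, 17.6, 11.5 and 54.6 kb. On chromosome 9, from 64352911 to 64564328, they were 81.3, 97.7, 17.7 and 13.8 kb, so that 3 regions stood together at the far end. On chromosome 4, from 128641865 to 128864787, they were 21.8, 97.1, 54.5 and 48.5 kb. The chain on chromosome 19 was thus evenly spread, whereas 3 regions stood closer together in the middle of the chain on chromosome 2 and at the end of that on chromosome 9.

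**Figure D2:**
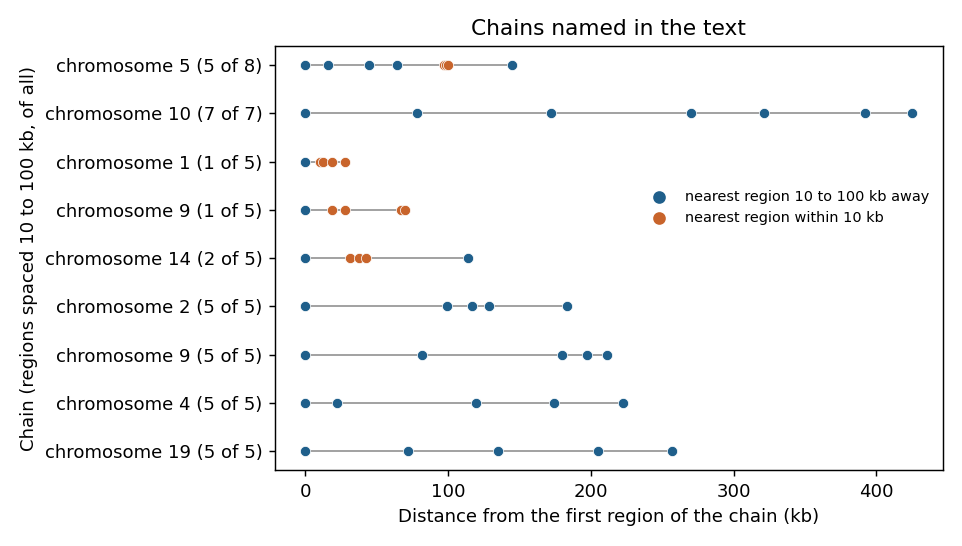
The rows are the 5 chains with most regions and, below them, the other chains of 5 regions without a tight group, each with its chromosome and the number of regions spaced 10 to 100 kb of all its regions; the horizontal axis is the distance in kb from the first region of the chain, blue points have their nearest region 10 to 100 kb away and orange points within 10 kb. The chain on chromosome 10 runs over 425 kb with 7 blue points, whereas that on chromosome 1 has 1 blue point beside 4 orange ones.

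These regions were almost uniform in width. Of the 826, 824 had the width shared by nearly the whole list and 2 were wider, and together they covered 166.1 kb. The last number in a region's name, 1 or 2, was read as the number of peaks merged into it, which the list does not define. In all, 2 of the 826 regions (0.242%, exact 95% interval 0.0293 to 0.872%) were merged from 2 peaks. The share was 1.46% over all autosomal regions and 1.46% over the whole list.

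Among isolated regions 10 of 2531 (0.395%, 0.190 to 0.725%) were merged from 2 peaks. The difference did not pass the threshold of 0.05 (odds ratio 0.612, exact 95% interval 0.0651 to 2.88, Fisher's exact test, two-sided, p = 0.742). The interval reaches from far fewer to almost 3 times as many, so counts this small could not settle a difference of either sign inside it. Regions of a chain are not independent, and with chains as the unit the ratio turned to 1.32 (0.140 to 6.23, Fisher's exact test, p = 0.665). That comparison set 2 of 384 chains, each of 2 or more regions, against the same 10 of 2531 single regions. The smaller total by itself raises the ratio, so its change of side carries no weight. Regions within 10 kb of another were merged from 2 peaks in 41 of 279 cases (14.7%, 10.8 to 19.4%), and they raise the share over all regions.

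Both of the merged regions lay on chromosome 9, and both were near the lower end of the range of gaps. The first, from 7934517 to 7934730, was 214 bp wide and stood 18.2 kb from its nearest neighbour and 272 kb from the region on its other side. It heads the chain of 5 on that chromosome, in which 2 further regions, from 8001452 to 8001666 and from 8004127 to 8004369, were merged from 2 peaks as well. The second, from 35112815 to 35113086, was 272 bp wide. It was the middle one of a chain of 3, with neighbours of 1 peak each at 13.5 kb before and 19.5 kb after it. On the assumption that parent peaks had the common width, their overlap was 188 bp in the first region and 130 bp in the second. On the other 18 autosomes 0 of 770 regions were merged from 2 peaks, which allows a share of up to 0.390% by the rule of 3 counts of the total, and up to 0.478% by the exact 95% interval.

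All autosomes held regions spaced 10 to 100 kb, and their share of a chromosome's regions varied moderately. The share was lowest on chromosome 7, with 34 of 203 (16.7%, exact 95% interval 11.9 to 22.6%), and on chromosome 1, with 49 of 290 (16.9%, 12.8 to 21.7%). It was highest on chromosome 18, with 44 of 144 (30.6%, 23.2 to 38.8%), and on chromosome 19, with 25 of 84 (29.8%, 20.3 to 40.7%). The intervals of 16 of the 19 chromosomes included the autosomal share of 22.7%, and those of chromosomes 1, 7 and 18 did not. Since regions of a chain count together, these intervals are too narrow, and no test of the spread was made.

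By length, chromosome 18 had 0.516 such regions per Mb between its first and last region and chromosome 7 had 0.230, a 2.25-fold range around 0.346 for all autosomes. Isolated regions ranged from 0.857 to 1.37 per Mb, a 1.60-fold range. Chromosome 11 had the highest density of isolated regions, at 1.37 per Mb, yet its share of regions spaced 10 to 100 kb was 22.1%, close to the autosomal share. Chromosome 15 had the lowest density of isolated regions, at 0.857 per Mb, with a share of 25.6%. The chromosome densest in isolated regions thus did not have the largest share of regions spaced 10 to 100 kb, nor the sparsest the smallest. Isolated regions are part of the total behind that share, however, so many of them lower it by construction. Per Mb, chromosome 11 had 0.412 regions spaced 10 to 100 kb and chromosome 15 had 0.306, above and below the value for all autosomes. On chromosome 18 only 4 of the 44 regions stood in chains of 3 or more, against 29 of 81 on chromosome 2 and 220 of 826 over all autosomes. Most regions on chromosome 18 were thus in pairs, but pairs prevailed on other chromosomes too. Chains of 3 or more held 6 of 40 regions on chromosome 13 and 4 of 30 on chromosome 15. On chromosome 19, with a similarly high share, they held 7 of 25.

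**Figure D3:**
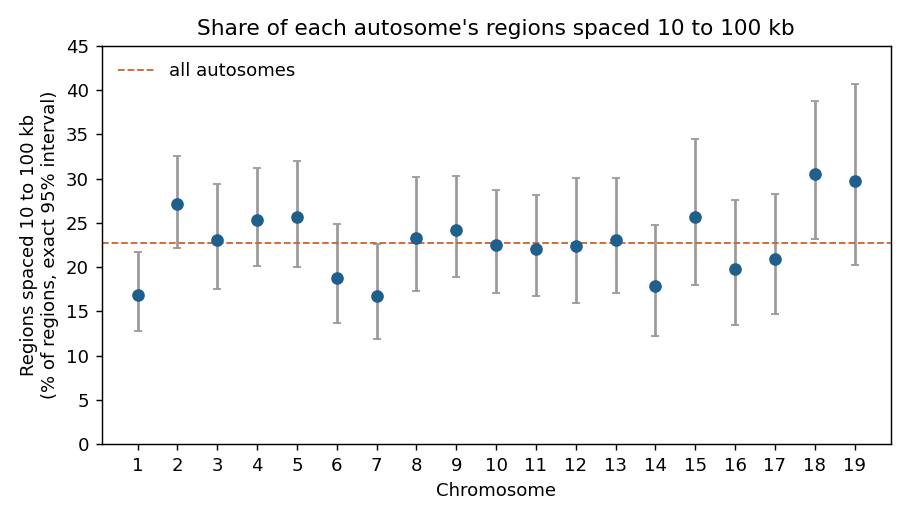
Share of each autosome's regions that were spaced 10 to 100 kb (vertical axis, %, points with exact 95% intervals) by chromosome (horizontal axis); the dashed line is the share over all autosomes, 22.7%. The points run from 16.7% on chromosome 7 to 30.6% on chromosome 18, and 3 of the 19 intervals leave out the line.

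Along the chromosomes, fewer of the regions spaced 10 to 100 kb lay at low coordinates, where mouse autosomes have their centromere, than towards the far end. Position along the chromosome was not used by the rule. Each chromosome was divided into 10 equal sections between its first and last region, numbered from low to high coordinates. Section 1 held 42 of the 826 regions (5.08%, exact 95% interval 3.69 to 6.81%), and sections 9 and 10 held 121 (14.6%, 12.3 to 17.2%) and 120 (14.5%, 12.2 to 17.1%). Isolated regions were more level, with 8.85% (7.77 to 10.0%) in section 1, 10.9% (9.72 to 12.2%) in section 9 and 12.6% (11.3 to 13.9%) in section 10. On 17 of the 19 autosomes the share in section 1 was lower than that of isolated regions, and 7 autosomes had none of these regions there. In section 10 the share was higher than that of isolated regions on 12 of the 19. Regions of a chain lie together, so the intervals for regions spaced 10 to 100 kb are too narrow here. Counted once per chain, at the mean place of its regions, section 1 held 20 of 384 chains (5.21%, 3.21 to 7.93%). That interval overlaps the one of isolated regions in section 1.

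The distal part of the chromosome, from its midpoint on, held 505 of the 826 regions (61.1%, 57.7 to 64.5%) and 1317 of the 2531 isolated ones (52.0%, 50.1 to 54.0%). The share was higher than that of isolated regions on 16 of the 19 autosomes. With each chain counted once, at the mean place of its regions, 230 of 384 chains (59.9%, 54.8 to 64.8%) lay beyond the midpoint. Regions within 10 kb of another showed the opposite lean, with 39.4% (33.7 to 45.4%) beyond the midpoint and 23.3% (18.5 to 28.7%) in section 1. The number of all autosomal regions moved with section too, from 331 in section 1 to 408 in section 9 and 477 in section 10, and its part in the difference was not tested. As a share of all autosomal regions there, those spaced 10 to 100 kb were 12.7% (9.30 to 16.8%) in section 1, 29.7% (25.3 to 34.3%) in section 9 and 25.2% (21.3 to 29.3%) in section 10. The contrast was noticed in these data and is given without a test.

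**Figure D4:**
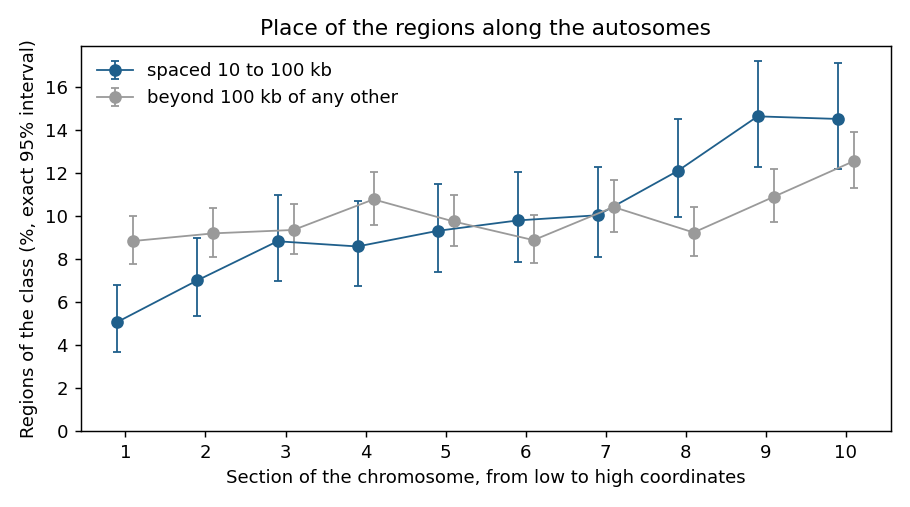
Share of regions (vertical axis, %, with exact 95% intervals) in each of 10 equal sections of the autosomes from low to high coordinates (horizontal axis), for regions spaced 10 to 100 kb (blue) and isolated regions (grey). The blue points go from 5.08% in section 1 to 14.6% in section 9, while the grey points lie between 8.85 and 12.6%.

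The number of regions farther out was compared with that around isolated regions, without a test. The rule does not use regions more than 100 kb away, so the number of regions between 100 kb and 1 Mb from each one, on both sides, was counted. It was 3.26 on average around regions spaced 10 to 100 kb (median 3, quartiles 2 and 4) and 2.98 around isolated regions (median 3, quartiles 1 and 4). By autosome the mean was higher around regions spaced 10 to 100 kb on 14 of 19, with a mean difference of 0.244 ± 0.391 (SD, n = 19 autosomes).

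Part of this count comes from the region's own chain, whose far members can lie beyond 100 kb. With the own chain left out the mean was 3.04 and the difference over autosomes 0.0402 ± 0.369 (SD, n = 19 autosomes). The mean was then higher around regions spaced 10 to 100 kb on 10 of 19 autosomes. Isolated regions have no other region in their chain, so their mean stayed at 2.98. Any region outside a chain also lies more than 100 kb past its end. Leaving out the own chain thus lowers only the count around regions spaced 10 to 100 kb, by construction. How much of the difference comes from the own chain cannot be told from it. Chromosome 8 stood apart, with 3.88 against 2.42, or 3.48 against 2.42 without the own chain. Without chromosome 8 the mean difference was 0.176 for the full count and -0.0165 with the own chain left out. No region was found in this window for 46 of the 826 (5.57%), or 50 (6.05%) with the own chain left out, and for 213 of the 2531 isolated regions (8.42%).

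**Figure D5:**
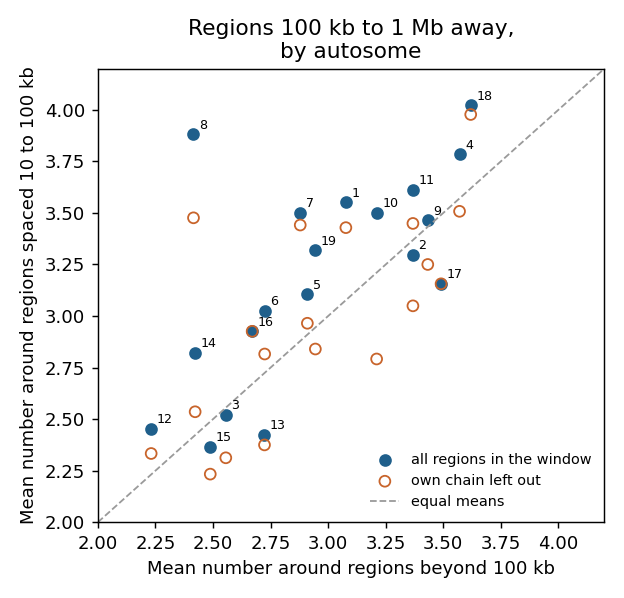
Mean number of regions 100 kb to 1 Mb away, around regions spaced 10 to 100 kb (vertical axis) against isolated regions (horizontal axis), 1 filled point per autosome with its number; open points leave out the region's own chain, and the dashed line marks equal means. Filled points lie above the line on 14 of 19 autosomes and open points on 10, with chromosome 8 farthest above it.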

How the data were processed

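ChIP-seq of Flag-tagged Hopx was made from embryonic mouse hearts at day 9.5, in 4 libraries, whose titles gave the groups. Bowtie 0.12.7, HOMER and the build mm9 are named in the submitters' processing notes. Settings for peaks and merging were not given in the sources used here. A single list of regions, with position, name, score and strand, was deposited by the authors. Its deposited score never differs from 1 and was not used. The list carries no read counts, so depth is unknown and intervals (Clopper-Pearson, 95%; conditional for odds ratios) cover counting error only.

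Gaps, chains and counts were computed with pandas 2.3.3 and numpy 2.4.6, Fisher's exact test with scipy 1.17.1, and plots with matplotlib 3.10.9, under Python 3.11.15. The assignment by gap was tested on simulated lists. Starts are printed counted from 1. The regions and rules were chosen with earlier results of these data known. Regions named by a rule set beforehand are those merged from 2 peaks, the 5 chains with most regions (ties to the shorter) and 2 regions on each side of each limit. The 4 chains of 5 regions without a tight group were added after their values had been seen. Alternatives were limits of 5 and 50 kb, distance between centres, joining within 1 kb, a parent overlap of 50%, chains as unit, and regions within 10 kb as 1 link. Leaving out chromosome 9 was added after the data were seen. Genes and sequences were not assigned, since no table of mm9 was used here.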

Additional observations from a re-analysis of the deposited data

How the results depend on the processing

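The number of regions (826) was 909 with a lower limit of 5 kb, 830 from centre to centre and 831 with regions within 1 kb joined, but 399 with an upper limit of 50 kb, since fewer gaps are then admitted. The share merged from 2 peaks (0.242%) stayed inside its interval under the 4 alternatives that kept all autosomes and was 0% without chromosome 9, which held both such regions. The odds ratio against isolated regions (0.612) turned to 1.27 with the limit of 50 kb (Fisher's exact test, p = 0.673) and to 1.32 with chains as the unit (p = 0.665, Fisher's exact test). Without chromosome 9 it was 0 (0 of 770 against 9 of 2390, Fisher's exact test, p = 0.125), and under none of the 5 alternatives run did it pass the threshold. The share in chains of 3 or more (26.6%) was 26.7% from centre to centre and 24.0% with regions within 10 kb as 1 link. No paired analysis was possible because no group holds more than 1 library and the regions are not assigned to libraries.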

Other observations

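The sex chromosomes, left out by the rule, were set beside the autosomes under the same limits. Of the 3636 autosomal regions, 22.7% were spaced 10 to 100 kb, 279 had a neighbour within 10 kb and 2531 had none within 100 kb. On chromosome X, 1 of 102 regions (0.980%, exact 95% interval 0.0248 to 5.34%) had its nearest neighbour 10 to 100 kb away, whereas 70 had one within 10 kb and 31 had none within 100 kb. On chromosome Y it was 7 of 37 (18.9%, 7.96 to 35.2%), with 30 within 10 kb and 0 beyond 100 kb. The interval of Y includes the autosomal share of 22.7% and that of X does not. Both intervals treat regions as independent, which neighbouring regions are not.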
